A study of Mus musculus with 31 samples.

Results

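The effect of deleting Cxcl5 was examined in Panc02 cells, a mouse pancreatic cancer line, grown in 2D, that is as flat cultures rather than as spheroids. The libraries were selected by their labels: 3 Cxcl5 knockout samples (2D KO) and 3 wild-type samples (2D WT), 6 of the 31 samples in the series. Bulk RNA sequencing counts were compared across all genes of the table, 21367 of 56980 of which carried enough reads to be tested. Both groups were listed in culture media with no other treatment, so genotype was the only labelled difference between them. The knockout cells had been made with a lentiviral lentiCRISPRv2 vector, which delivers Cas9 and a guide against Cxcl5, followed by puromycin selection. The sources used here do not state whether the knockout line was a clone or a pool, or whether the WT cells had also carried a vector and been selected, so genotype and the history of the line cannot be told apart. Nothing in the labels says that the 3 libraries of a group came from separate cultures, and the p-values therefore measure only the spread between these samples, which may be technical. Further samples were used to see where the 2D difference recurred. The first set was 3 knockout and 3 WT samples grown in 3D as spheroids in Matrigel and counted in the same table (3D KO and 3D WT). The second set was a separate table with 2 knockout and 2 WT samples, titled 2-3DKO and 2-3DWT, which the study describes as 3D cultures of Panc02 and whose labels give a different line number to each sample.

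CXCL5 is a secreted CXC chemokine with an ELR motif that binds the receptor CXCR2, and it is best known for drawing neutrophils into inflamed tissue and tumours. Tumour cells transcribe it together with other chemokines under NF-kB and AP-1, transcription factors switched on by cytokines and stress. Panc02 is a fast-growing, poorly differentiated line, and in 2D its cells lack the oxygen and nutrient gradients that build up inside spheroids.

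The libraries held 51905900 to 72361700 counts in 2D WT and 61150900 to 67690200 counts in 2D KO, and mitochondrial genes took 0.909% to 1.10% of them. Over the genes tested, log2 CPM (counts relative to the library's TMM-scaled size) differed between libraries of one genotype by a root mean square of 0.263 to 0.332, and between libraries of opposite genotype by 0.414 to 0.484. The counts of every pair of libraries within a genotype differed by more than sampling noise, so no pair was taken for repeat deposits of 1 library. That difference does not show that they came from separate cultures. The cells' own identity was checked against marker genes. Epcam, Cdh1, Cldn4, Krt20 and Gata6, markers of duct epithelium, had 0 counts in all 6 libraries, whereas the duct factor Pdx1 and the keratin genes Krt8 and Krt18 were present. Ptprc, Adgre1, Itgam, Cd3e, Ly6g and Tyrobp, which define leukocytes, were also at 0 in all 6 libraries, as were Fap, Pdpn, Postn and Thy1 of fibroblasts and Kdr, Tek and Tie1 of endothelium. Other listed fibroblast markers were present, among them Col3a1 at 461 to 660 CPM and Pdgfrb at 144 to 173 CPM across the 6 libraries. Cd14 of the leukocyte list was present too, at 26.1 to 42.8 CPM, with Lyz2 and Cd68 at lower levels.

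The Cxcl5 transcript itself (ENSMUSG00000029371, chr5:90759360-90761624, GRCm38, plus strand) was still abundant in the libraries labelled KO. It measured 45.6, 47.3 and 49.1 CPM in 2D WT and 37.4, 32.7 and 32.8 CPM in 2D KO. All knockout values lay below all WT values, by a log2 fold change of -0.47 ± 0.14 (SE), yet the difference missed the threshold in edgeR's quasi-likelihood test with Benjamini-Hochberg adjustment over all genes (adjusted p = 0.0705). A transcript that is still made says nothing of the protein, since an edit by Cas9 can leave the messenger RNA in place. The RNA level therefore does not check the labels. The study itself checked the knockout by immunoblot for CXCL5, and the blot it shows is of 3D cells. In 3D the transcript was higher in the library group labelled KO (log2 fold change 0.91, adjusted p = 1.73e-04) and in the 2-3D samples it was lower (-0.78, adjusted p = 0.00107). Of the 9 ELR chemokines and receptors listed, 4 were tested and none was called by edgeR (Cxcl5 alone had an unadjusted p under 0.05, and DESeq2 called 1), with Cxcl3 at 7.15, 7.28 and 9.34 CPM in WT and 8.22, 7.51 and 7.98 CPM in KO. The receptor gene Cxcr2 had 0 counts in every 2D library, which allows at most 0.0417 to 0.0578 CPM.

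Deletion was associated with moderate changes in both directions in the 2D transcriptome. At an adjusted p below 0.05, 825 genes were higher in 2D KO (3.86% of those tested) and 677 were lower (3.17%). The median absolute log2 fold change among the 1502 called genes was 0.83, and 364 higher and 302 lower genes passed a log2 fold change of 1. Protein-coding genes made up 89.7% of the calls and 63.7% of the genes tested. The 6 libraries separated fully, with no overlap of CPM between genotypes, for 819 of the 825 higher and 674 of the 677 lower genes, against 26.1% of all genes tested. Over all genes tested the median log2 fold change was -0.015, close to 0.

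**Figure D1:**
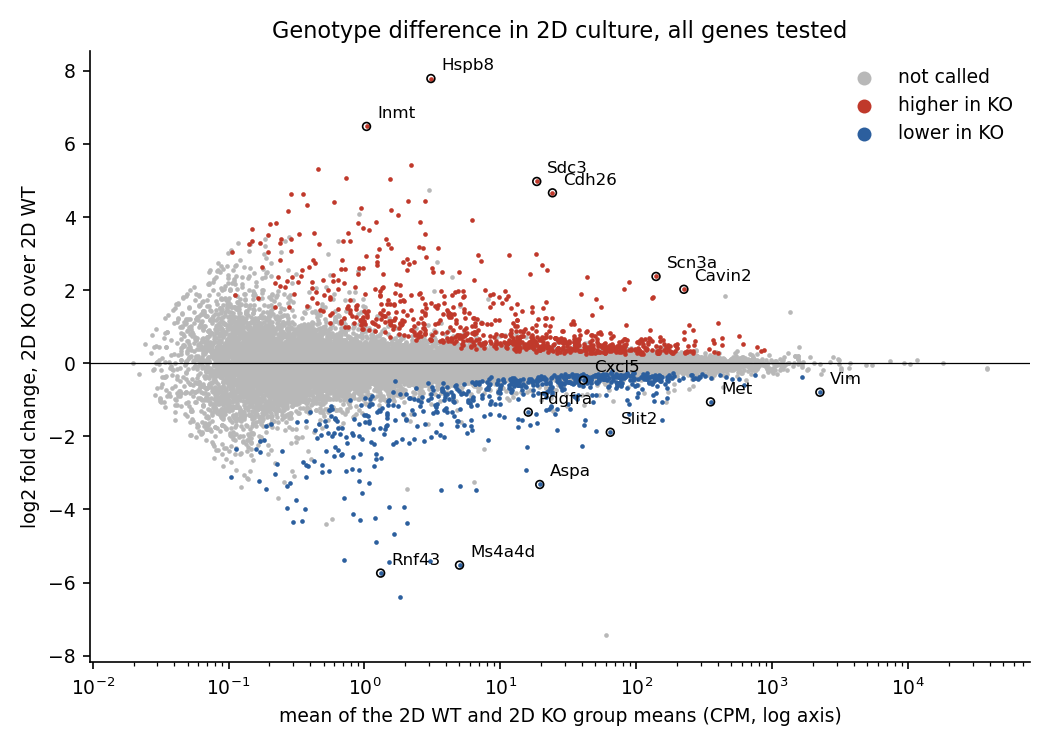
Mean level of each tested gene (mean of the 2D WT and 2D KO group means, CPM, log axis) against its log2 fold change (2D KO over 2D WT, from edgeR). Grey points were not called, genes called higher and lower are red and blue, genes at 3 counts or fewer in every library of a genotype are not drawn, and circled genes are described in the text. Calls spread from low to high expression in both directions, and Cxcl5 sits among genes of small difference.

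The lower genes were not spread evenly over the genome, because chromosome 1 held far more of them than any other chromosome. This was seen after the values were known. Of 1394 tested genes on chromosome 1, 168 (12.1%) were lower in 2D KO and 32 (2.30%) were higher, so that a chromosome with 6.52% of the tested genes carried 24.8% of all lower calls. The 756 genes of chromosome 1 that averaged 100 counts or more had a median log2 fold change of -0.25, a 1.19-fold difference, and 86.2% of them lay below 0. The medians of 17 other chromosomes ran from -0.027 to 0.045, with 42.1% to 55.4% of genes below 0. Relative to the WT mean, the chromosome 1 median was -0.013, 0.0086 and 0.0013 in the WT libraries and -0.22, -0.25 and -0.22 in the KO libraries. The 3 knockout libraries thus shared the shift and the 3 WT libraries lacked it. Along the chromosome the shift was broad, with medians of -0.28 to -0.16 in 10 successive bins of 20 Mb.

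**Figure D2:**
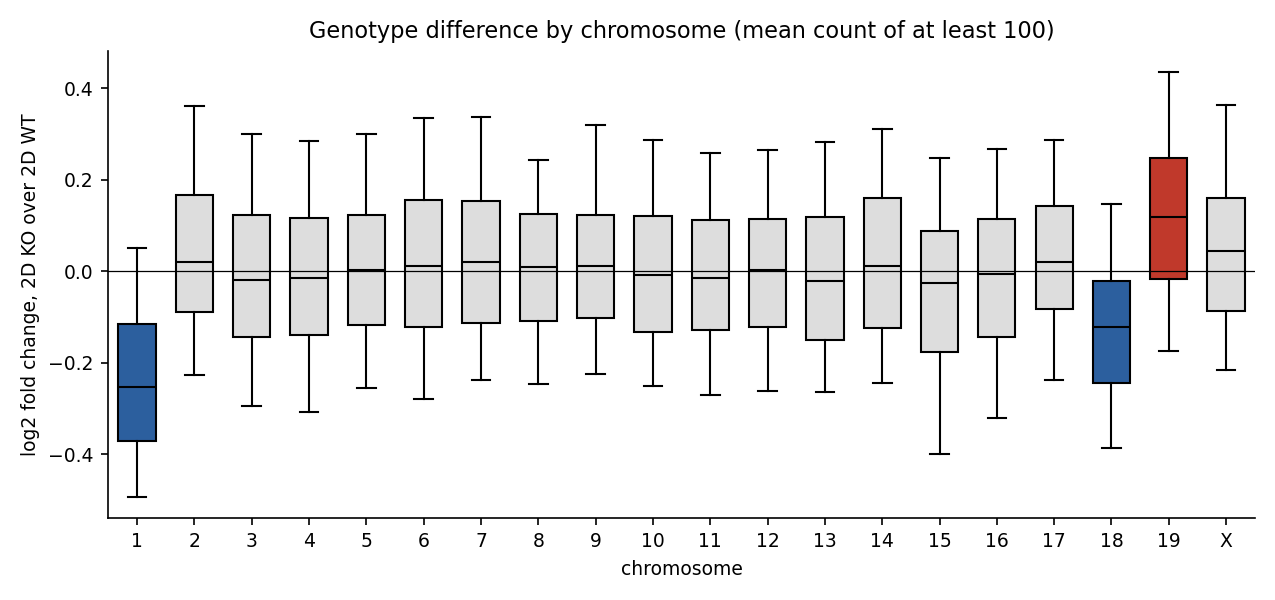
Log2 fold changes (2D KO over 2D WT) of genes averaging 100 counts or more, by chromosome. Boxes span the quartiles with the median as a line, and whiskers span the 10th to 90th percentiles. Chromosome 1, with a median of -0.25, stands below the rest, and chromosomes 18 (blue) and 19 (red) are displaced by less, with medians of -0.12 and 0.12.

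Smaller shifts were present on chromosomes 18 and 19. On chromosome 18 the median was -0.12 with 77.8% of genes below 0, and on chromosome 19 it was 0.12 with 27.8% below 0. Lower calls on chromosome 1 were also small in size, with a median log2 fold change of -0.43, against -1.11 for lower calls elsewhere. Without chromosome 1, 793 genes were higher and 509 lower (2.55% of 19973). Of the 168 lower genes on chromosome 1, 108 were also lower in 3D (25.3% of all genes) and 81 in the 2-3D samples (24.3%). For the genes averaging 100 counts or more, the chromosome 1 median was -0.20 in 3D, against -0.13 over all such genes. Chromosomes 3, 10, 13 and 18 had lower medians in 3D (-0.47, -0.21, -0.26 and -0.22). In the 2-3D samples the chromosome 1 median was -0.14, against 0.013 over all such genes, and that of chromosome 13 was -0.17. Because the chromosome as a whole was displaced, its called members are marked in the gene groups described here. The cause of the shift was not tested.

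Against this background of small shifts, 12 genes were all but silent in 2D KO (at most 3 counts in each library) and held at least 50 counts in each WT library. They included enzymes, receptors, a growth factor and adhesion proteins. The largest bounds belonged to Herc3, a HECT-domain ubiquitin ligase, at 10.1, 10.6 and 11.1 CPM in WT and 0.0296, 0 and 0 CPM in KO, and Gpr149, an orphan receptor on chromosome 3, at 6.72, 7.28 and 6.58 CPM in WT and 0 in each KO library. Measured against the 3 counts per library that a count of 0 allows, Herc3 was at least 229-fold lower and Gpr149 at least 148-fold lower (adjusted p = 6.07e-05 and 3.56e-06, edgeR). Fabp5, a carrier of fatty acids and retinoic acid in the cytosol (chr3:10012548-10016607, GRCm38), measured 5.89, 4.39 and 5.19 CPM in WT and 0 in each KO library, at least 111-fold lower. The adhesion molecule Alcam fell from 5.12, 4.29 and 5.14 CPM to 0, 0.0483 and 0 CPM, at least 105-fold lower (adjusted p = 1.33e-04).

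Hgf, which encodes hepatocyte growth factor, was part of this silent group: it measured 1.5, 2.86 and 2.00 CPM in WT and 0 in each KO library, at least 45.8-fold lower (adjusted p = 1.09e-06, edgeR). Psmb8, a catalytic subunit of the immunoproteasome, was at least 36.1-fold lower, the tetraspanin Tspan8 at least 24.6-fold lower and the protein kinase D gene Prkd1 at least 19.3-fold lower. The remaining 4 were the mannosidase Manea (at least 91.1-fold lower), Tmem218 (49.9-fold), the nuclear pore gene Nup210 (29.6-fold) and the membrane-curving protein Bin2 (21.9-fold), each as a lower bound. All 12 genes except Bin2 were also called lower in 3D. Tspan8 differed by only -0.83 on the log2 scale in 3D (adjusted p = 0.0170) and was higher in the 2-3D knockout samples (3.59, adjusted p = 2.52e-05). The opposite pattern, silence in WT, was met by 3 genes: Gm47885 (at least 57.6-fold higher), a processed pseudogene, the X-linked melanoma antigen gene Magea8 (28.2-fold) and the noncoding gene Eprn (24.6-fold).

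**Figure D3:**
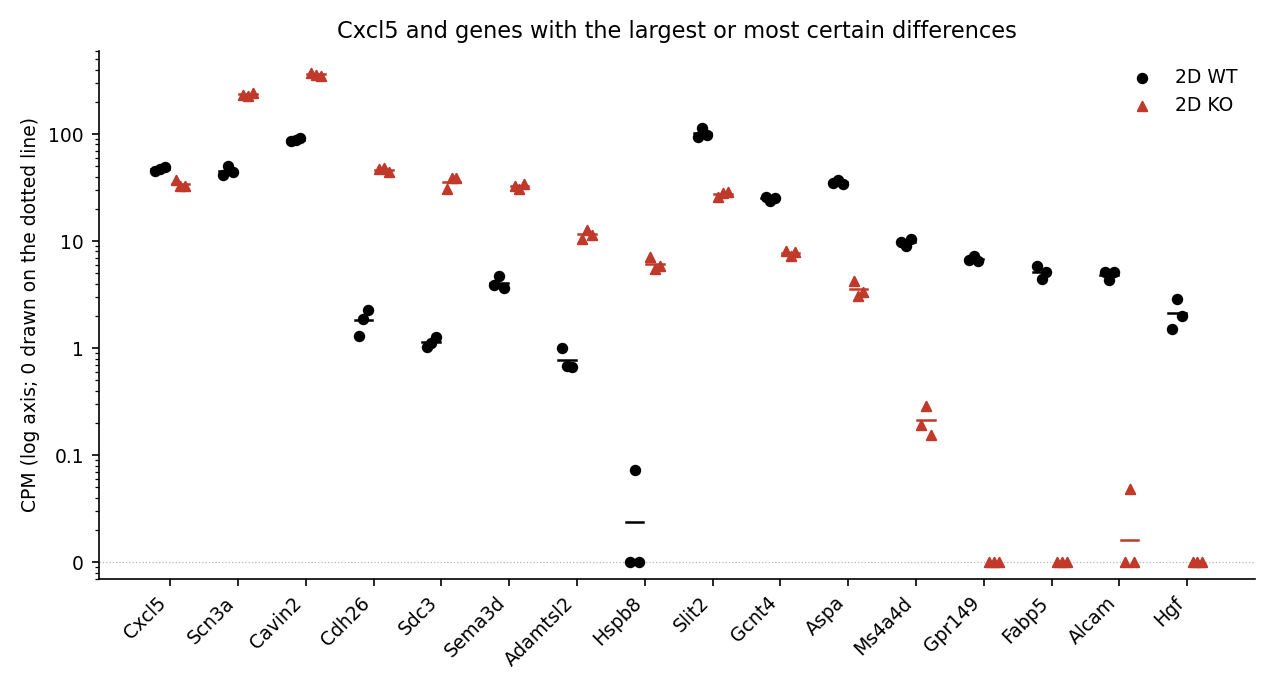
Level of Cxcl5 and 15 other genes in each 2D library (CPM, log axis, with 0 drawn on the dotted line). Black circles are the 3 WT and red triangles the 3 KO libraries, and bars are group means. For Cxcl5 the 2 groups lie close together without overlap, while Gpr149, Fabp5 and Hgf are at 0 in all KO libraries.

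Among the higher genes, the most certain were a cadherin, an ion channel and a coat protein of caveolae. Cdh26, a cadherin of epithelial and inflammatory tissue, rose from 1.29, 1.88 and 2.28 CPM in WT to 47.0, 48.2 and 44.6 CPM in KO, a log2 fold change of 4.66 ± 0.16 (adjusted p = 3.24e-09, edgeR). The sodium channel gene Scn3a rose from 41.8, 49.8 and 44.0 CPM to 234, 229 and 241 CPM (2.37 ± 0.086, adjusted p = 3.66e-09). Cavin2, a coat protein of caveolae, rose from 86.6, 87.2 and 92.0 CPM to 373, 359.9 and 347 CPM (2.02 ± 0.077, adjusted p = 4.70e-09) although it lies on chromosome 1. In each of these genes the replicates agreed closely and the gap between genotypes was many times their spread. Sdc3, a heparan sulfate proteoglycan of the cell surface, rose from 1.02, 1.11 and 1.28 CPM to 30.5, 38.4 and 38.9 CPM (adjusted p = 1.37e-08). The scavenger receptor gene Scara5 rose 5.14-fold and the olfactomedin-like gene Olfml2b, on chromosome 1, 7.86-fold. Among genes averaging 50 counts or more, the largest fold changes outside the silent genes belonged to the small heat shock protein gene Hspb8 (0, 0.0719 and 0 CPM in WT, 7.07, 5.52 and 5.85 CPM in KO) and the methyltransferase gene Inmt (0.0770, 0 and 0 CPM in WT, 1.79, 1.90 and 2.45 CPM in KO). With WT libraries at or near 0, the sizes of the Hspb8 and Inmt changes are uncertain. Hspb8 was alone among 16 tested heat shock protein genes in being called (6.25%, against 3.86% higher over all genes), and the list had a median of -0.12.

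The most certain lower genes were Ms4a4d, Slit2, Gcnt4 and Aspa. Ms4a4d, a membrane-spanning MS4A protein, fell from 9.86, 9.06 and 10.5 CPM in WT to 0.193, 0.290 and 0.154 CPM in KO (log2 fold change -5.52 ± 0.23, adjusted p = 1.19e-08, edgeR). Slit2, a secreted guidance protein that signals through ROBO receptors (chr5:47983138-48307733, GRCm38, plus strand), fell from 93.4, 113 and 97.7 CPM to 25.8, 27.8 and 28.6 CPM (-1.89 ± 0.098, adjusted p = 6.59e-08). The loss extended over the whole locus: all 7 tested entries between 47.9 and 48.3 Mb of chromosome 5, Slit2 and the noncoding entries that overlap it, were lower, with log2 fold changes of -2.78 to -1.89. Since these entries overlap, their reads may not be independent of those of Slit2. Aspa, the enzyme that splits N-acetylaspartate, fell from 34.7, 37.4 and 34.4 CPM to 4.21, 3.09 and 3.36 CPM (-3.32 ± 0.19, adjusted p = 1.43e-07). The glycosyltransferase Gcnt4 was 3.22-fold lower, the matrix protein Emilin2 3.21-fold lower and Nt5e (CD73), which makes adenosine from AMP at the cell surface, 10.2-fold lower. Slit2 and Emilin2 did not pass the test in the 2-3D samples (log2 fold changes -0.059 and -0.35, adjusted p = 0.782 and 0.0701), whereas Nt5e was lower there too (-1.84, adjusted p = 4.03e-04).

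Among the listed chemokine and cytokine genes outside the ELR class and the listed NF-kB genes, every gene that edgeR called was lower. Of 22 tested chemokine and cytokine genes, 8 were lower in 2D KO, against 3.17% of all genes, and none was higher in edgeR (at an unadjusted p under 0.05 the counts were 10 and 0, and DESeq2 gave 8 and 0). The cytokine gene Il7, which was not in the list, was called higher (log2 fold change 0.89, edgeR). The median of the list was -0.67 (-0.58 with genes at the floor set to their bound), against -0.015 over all genes. The monocyte chemokines led the group. Ccl2, the main ligand of CCR2, fell from 238, 225 and 225 CPM in WT to 85.1, 67.1 and 82.7 CPM in KO (log2 fold change -1.55 ± 0.21, adjusted p = 3.46e-04, edgeR). Ccl7, its neighbour on chromosome 11, fell from 78.9, 81.2 and 79.6 CPM to 24.6, 19.5 and 22.2 CPM (-1.85 ± 0.23, adjusted p = 1.58e-04). Ccl9, a ligand of CCR1, fell from 22.3, 21.1 and 21.4 CPM to 7.48, 8.30 and 6.39 CPM (-1.55 ± 0.13, adjusted p = 4.93e-06). For these genes all knockout values lay far below all WT values, with little spread within a genotype. Il34, a ligand of the CSF1 receptor, was 1.70-fold lower, Cxcl10, the interferon-induced T cell chemokine, 4.52-fold lower and the alarmin Il33 3.44-fold lower, and Cxcl16 completed the group at 2.02-fold lower. Tnf was rare, at 0.289, 0.129 and 0.0834 CPM in WT and 0 in KO, at least 3.61-fold lower. Csf1, the other CSF1 receptor ligand and the most abundant of those not called, measured 145, 133 and 154 CPM in WT and 129, 134 and 127 CPM in KO.

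Of 17 tested NF-kB subunits and feedback genes, 8 were lower and none higher in edgeR, with a median of -0.38, against 3.17% lower and 3.86% higher over all genes tested (11 lower and 1 higher at an unadjusted p under 0.05, 8 and 0 by DESeq2). The 8 were mostly genes that NF-kB itself is known to induce. Nfkbie, which encodes the inhibitor IkB-epsilon, fell from 18.7, 16.5 and 18.1 CPM to 9.66, 7.88 and 9.51 CPM (log2 fold change -0.98 ± 0.12, adjusted p = 1.82e-04, edgeR), and Nfkbia, encoding IkB-alpha, from 34.6, 29.7 and 33.5 CPM to 23.3, 23.7 and 20.7 CPM (-0.53 ± 0.13, adjusted p = 0.0243). The subunits of the noncanonical arm fell as well, Nfkb2 by 1.47-fold (adjusted p = 0.00182) and Relb by 1.44-fold (adjusted p = 0.0104). Traf1, an adaptor of TNF receptors, fell 5.58-fold, Nfkbiz 1.34-fold and Bcl3 1.60-fold, while Birc3 went from 0.173, 0.230 and 0.0973 CPM to 0. The subunits of the canonical dimer were not called, Rela with 31.8, 27.6 and 29.2 CPM in WT and 29.4, 32.4 and 32.3 CPM in KO and Nfkb1 with 97.5, 74.8 and 83.8 CPM in WT and 81.2, 80.3 and 87.2 CPM in KO. Several of these differences were small and near the threshold, and Bcl3, Birc3, Tnf, Cxcl16, Nfkbia, Nfkbiz and Relb lost their call in 4 to 11 of the alternative fits.

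**Figure D4:**
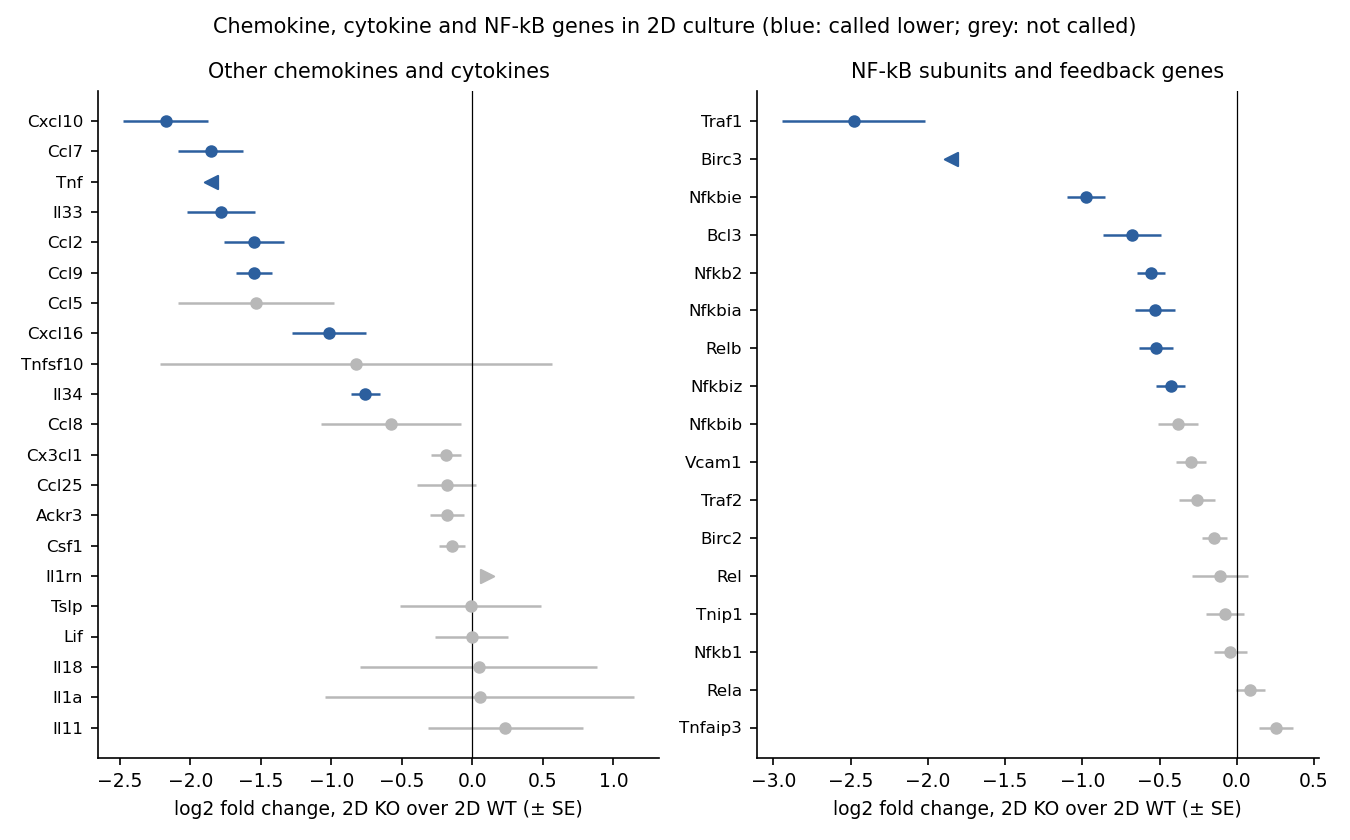
Log2 fold change (2D KO over 2D WT) of the tested chemokine, cytokine and NF-kB genes, with bars for the SE from edgeR. Triangles are bounds for genes at 3 counts or fewer in every library of a genotype, and genes at that floor in both genotypes are not drawn. Blue marks the 8 genes of each list that were lower, and no member of either list was higher.

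To show the control sequence of this group, the 250 bases before each RefSeq start of a gene were read (GRCm38.p6). They were searched on both strands for the kappa-B motif, the site to which NF-kB dimers bind. A gene was counted as holding the motif if any of its starts had a match. The motif and the genes were chosen after the values were known. Of the 16 lower genes of both lists, 10 had a promoter entry and 5 held the motif (Ccl9, Cxcl10, Nfkb2, Nfkbia and Nfkbie), against 5 of 18 (27.8%) of the members that were not called and 10.3% of all tested genes with an entry. A match describes the letters of this window and does not show that the factor binds. Because the NF-kB list holds genes tied to that factor, more matches than over all genes were built in. The counts of called and uncalled members are too small to compare. The promoters of Cxcl10 (chr5:92348890-92349139, minus strand), Nfkbia (chr12:55492648-55492897, minus strand) and Nfkbie (chr17:45555450-45555699, plus strand) are shown because their genes fell and hold the motif, which is in capitals. In Cxcl10 the second block of capitals joins 3 overlapping matches, so its 4 matches are fewer separate sites.
Cxcl10: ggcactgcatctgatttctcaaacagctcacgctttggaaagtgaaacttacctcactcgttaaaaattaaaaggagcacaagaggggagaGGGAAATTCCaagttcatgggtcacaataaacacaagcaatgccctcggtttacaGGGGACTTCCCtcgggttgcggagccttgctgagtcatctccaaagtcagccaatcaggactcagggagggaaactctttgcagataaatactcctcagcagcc
Nfkbia: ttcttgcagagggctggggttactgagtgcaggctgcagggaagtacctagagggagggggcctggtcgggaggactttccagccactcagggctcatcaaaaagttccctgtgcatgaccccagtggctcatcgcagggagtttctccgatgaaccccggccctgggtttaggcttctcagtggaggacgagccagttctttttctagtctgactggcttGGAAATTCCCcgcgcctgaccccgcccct
Nfkbie: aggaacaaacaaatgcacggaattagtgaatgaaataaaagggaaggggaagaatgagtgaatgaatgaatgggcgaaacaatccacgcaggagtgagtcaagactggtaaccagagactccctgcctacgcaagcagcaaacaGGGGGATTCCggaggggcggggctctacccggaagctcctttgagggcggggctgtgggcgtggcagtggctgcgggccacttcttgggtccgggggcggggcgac

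Interferon-stimulated genes were mixed, with 8 of 47 lower (17.0%) and 3 higher (6.38%) and a median of -0.18, against 3.17% lower and 3.86% higher over all genes. One of the lower genes lies on chromosome 1. Trim30a, a restriction factor of the TRIM family, fell from 2.77, 2.83 and 2.46 CPM in WT to 0.756, 0.515 and 0.478 CPM in KO (log2 fold change -2.20 ± 0.18, adjusted p = 3.84e-06, edgeR), and its neighbour Trim30d fell 15.2-fold. The 2 Trim30 genes are close paralogs and their reads may be shared. Ifih1, the cytosolic RNA sensor MDA5, went from 0.482, 1.02 and 0.862 CPM to 0, at least 17.0-fold lower, and Ifit1 fell 2.19-fold. Of 19 MHC class I presentation genes, 2 were lower and 2 higher. Besides Psmb8, Tap2 was lower (1.73-fold), while its partner in the peptide transporter, Tap1, rose 1.44-fold and Nlrc5, the transactivator of class I genes, rose 1.64-fold. Among 12 acute phase and defence genes, the complement genes C1ra, C1s1 and C3 rose 1.83-fold, 1.47-fold and 1.82-fold.

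Genes of the oxygen response differed in part in 2D. Hif1a, the oxygen-regulated subunit of HIF-1, measured 211, 215 and 221 CPM in WT and 234, 218 and 221 CPM in KO, and its groups overlapped (adjusted p = 0.857, edgeR). Myc measured 17.0, 18.7 and 19.2 CPM in WT and 14.5, 16.5 and 12.5 CPM in KO, a log2 fold change of -0.34 ± 0.12 that did not pass the test (adjusted p = 0.112). Of 26 hypoxia-response genes, 7 were lower (26.9%) and 2 higher (7.69%), with a median of -0.059, against 3.17% and 3.86% of all genes. Angptl4 was lower by 1.82-fold, the glucose transporter Slc2a1 by 1.33-fold and the HIF hydroxylase Egln3 by 1.42-fold. The calls of Slc2a1 and Egln3 were lost in 7 and 5 of the alternative fits. Vldlr, a lipoprotein receptor, rose from 157, 167 and 155 CPM to 324, 327 and 332 CPM (2.05-fold, adjusted p = 8.89e-07) and Pdk1, which holds back pyruvate dehydrogenase, rose 1.67-fold. Of 22 glycolysis and lactate genes, 2 were lower and none higher, and Pfkp, the platelet-type phosphofructokinase, fell 1.77-fold from 128, 126 and 139 CPM to 73.1, 72.8 and 76.8 CPM (adjusted p = 1.55e-05). In 3D, by contrast, 24 of the 26 hypoxia-response genes and 18 of the 22 glycolysis genes were lower, where 25.3% of all genes were lower.

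Amino acid and stress genes under ATF4, a translationally induced transcription factor, were higher in part. Of 25 tested, 6 were higher and none lower, with a median of 0.17, against 3.86% higher over all genes (10 and 1 at an unadjusted p under 0.05, and 9 and 0 by DESeq2). Asns, asparagine synthetase, rose from 299.9, 294 and 309 CPM in WT to 472, 434 and 418 CPM in KO (log2 fold change 0.55 ± 0.092, adjusted p = 0.00173, edgeR). Chac1, which degrades glutathione, rose 1.78-fold, the pseudokinase Trib3 1.70-fold and the stress sensor Sesn2 1.43-fold. In the neighbouring list of 22 serine and folate enzymes, 3 rose: the mitochondrial folate enzyme Aldh1l2 (15.2, 15.1 and 15.2 CPM in WT, 32.9, 30.7 and 29.2 CPM in KO, adjusted p = 5.14e-06) and the serine synthesis enzymes Psat1 (1.27-fold) and Psph (1.34-fold). Gldc, the glycine decarboxylase, fell 4.21-fold (adjusted p = 7.11e-05). The direction was the opposite in spheroids, where 21 of the 25 ATF4 genes were lower, against 25.3% of all genes. Asns, Chac1, Trib3, Aldh1l2, Psat1 and Psph were all called lower there (-1.38 for Asns and -1.47 for Aldh1l2). The difference between culture forms was itself called for 22 of the 25 genes, against 27.2% of all genes. The same 6 genes were lower in the 2-3D samples.

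Chaperones of the endoplasmic reticulum were lower in part, with 5 of 20 lower (25%), none higher and a median of -0.24 (6 lower by DESeq2). Over all genes 3.17% were lower and 3.86% higher. Hspa5 (BiP), the central chaperone, was 1.29-fold lower (adjusted p = 0.0346, edgeR), a call that 8 of the alternative fits did not keep. Of 19 fatty acid synthesis genes, 4 rose (21.1%) and none fell. The elongase Elovl5 went from 108, 105 and 98.8 CPM to 160.2, 159.5 and 159 CPM (adjusted p = 6.63e-04, edgeR). In cholesterol synthesis 1 of 25 genes was higher and 1 lower (4% each, near the share of all genes), the lower one on chromosome 1. Of 35 glutathione and ferroptosis genes, 4 rose (11.4%), 1 of them on chromosome 1, and none fell.

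Some targets of p53 were higher, 8 of 26 (30.8%), while 1 was lower (3.85%), with a median of 0.17, against 3.86% higher and 3.17% lower over all genes. Eda2r, a receptor of the TNF receptor family, rose from 25.5, 28.6 and 27.8 CPM in WT to 71.9, 68.5 and 62.8 CPM in KO (log2 fold change 1.31 ± 0.090, adjusted p = 8.89e-07, edgeR). The cyclin gene Ccng1 rose from 417, 438 and 423 CPM to 760.0, 700.1 and 675 CPM (0.74 ± 0.088, adjusted p = 1.07e-04), Trp53inp1 rose 1.78-fold and the death receptor gene Fas 1.58-fold. Not every classical target took part: the kinase gene Plk2 fell 1.82-fold (adjusted p = 1.11e-05) and Cdkn1a (p21) measured 9.19, 11.7 and 9.82 CPM in WT and 12.1, 11.9 and 10.8 CPM in KO. The p27 gene Cdkn1b rose 1.34-fold and Mxd4, a partner of MAX that opposes MYC, rose 2.05-fold (adjusted p = 4.64e-05). Eda2r, Ccng1 and Trp53inp1 were lower in 3D (-0.55, -1.28 and -0.53), whereas Fas was higher (2.15, adjusted p = 1.19e-08). In the 2-3D samples Eda2r (1.38, adjusted p = 1.51e-05), Trp53inp1 (0.67, adjusted p = 9.37e-05) and Fas (2.22, adjusted p = 1.26e-07) were higher and Ccng1 was lower (-0.34, adjusted p = 0.0125).

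Proliferation genes differed by list. None of 25 mitosis genes was called by edgeR, 6 were lower at an unadjusted p under 0.05 and DESeq2 called 2 lower, and the most abundant of them, Top2a, measured 1199.9, 1220.5 and 1244 CPM in WT and 1171, 1072 and 1089 CPM in KO. In DNA replication 4 of 36 genes were lower (11.1%, against 3.17% of all genes), but 3 of the 4 (Mcm6, Mcm3 and Prim2) lie on chromosome 1. The helicase subunits Mcm6 and Mcm3 differed by -0.39 and -0.41 and the primase subunit Prim2 by -0.34 on the log2 scale, beside the chromosome's median of -0.25, and Cdc6 on chromosome 11 was 1.24-fold lower. In ribosome biogenesis both lower genes of 30, Wdr75 and Wdr12, lie on chromosome 1 as well (-0.43 and -0.37). Cdc6, Prim2 and Wdr12 lost their call in 8, 7 and 7 of the alternative fits, Mcm3 in 4 and Mcm6 and Wdr75 in 3 each. The part of the chromosome shift in these calls was not tested.

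Growth factor genes included a ligand and its receptor that fell together. Met, the receptor for hepatocyte growth factor, fell from 448, 497 and 483 CPM in WT to 237, 225 and 225 CPM in KO (log2 fold change -1.06 ± 0.091, adjusted p = 5.64e-06, edgeR), beside the silent Hgf. Kitl, the ligand of KIT, fell from 117, 138 and 126 CPM to 50.5, 47.4 and 48.7 CPM (-1.38 ± 0.13, adjusted p = 1.11e-05). Pdgfra, the PDGF receptor alpha gene, fell from 22.5, 24.2 and 22.4 CPM to 8.31, 9.49 and 9.51 CPM (-1.34 ± 0.093, adjusted p = 8.97e-07). In all, 6 of 39 genes of the growth factor list were lower (15.4%) and 3 higher (7.69%), against 3.17% and 3.86% of all genes. In the EGF family 4 of 15 genes were lower (26.7%) and 1 higher (6.67%). Areg was lower by 1.48-fold and the rare Tgfa by at least 6.78-fold (0.404, 0.288 and 0.250 CPM in WT, 0 in KO). The receptor gene Egfr rose from 0.193, 0.360 and 0.195 CPM to 1.04, 1.01 and 1.05 CPM. AP-1 and immediate early genes, which respond to these receptors, had 7 of 29 lower (24.1%) and none higher in edgeR (median -0.20), against 3.17% and 3.86% of all genes (12 lower and 1 higher at an unadjusted p under 0.05, 8 and 0 by DESeq2). Among them was Jun, at 32.0, 24.9 and 29.8 CPM in WT and 17.5, 20.1 and 16.4 CPM in KO (adjusted p = 0.00218).

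Developmental signalling genes changed in both directions. Of 37 TGF-beta and BMP genes, 5 were lower (13.5%) and 3 higher (8.11%), 1 of the higher genes on chromosome 1. Over all genes 3.17% were lower and 3.86% higher. Bmp6 fell from 3.54, 3.91 and 3.52 CPM in WT to 0.148, 0.257 and 0.308 CPM in KO (log2 fold change -3.94 ± 0.28, adjusted p = 1.21e-06, edgeR) and the activin inhibitor Fst rose 3.47-fold. Of 29 Wnt genes, 8 were lower (27.6%) and 6 higher (20.7%), with 2 of the lower and 2 of the higher genes on chromosome 1. The ligand gene Wnt9a rose from 2.20, 2.14 and 2.22 CPM to 10.6, 11.5 and 9.86 CPM (2.28 ± 0.14, adjusted p = 2.31e-07) and the receptor gene Fzd5, on chromosome 1, rose 2.21-fold. Rnf43, a ubiquitin ligase that removes Frizzled receptors and is a tumour suppressor in pancreatic cancer, fell from 2.74, 2.22 and 2.81 CPM to 0, 0 and 0.139 CPM (adjusted p = 1.63e-04). The Notch ligand Jag1 fell 2.17-fold (adjusted p = 1.43e-05).

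Matrix and guidance genes were called in both directions. Of 58 matrix proteins and enzymes other than collagens, 10 were higher (17.2%) and 6 lower (10.3%), against 3.86% and 3.17% of all genes. The gelatinase gene Mmp2 rose from 1.35, 1.70 and 1.64 CPM in WT to 12.8, 12.3 and 11.5 CPM in KO (log2 fold change 2.95 ± 0.17, adjusted p = 1.43e-07, edgeR), the basement membrane gene Nid2 from 0.173, 0.216 and 0.0973 CPM to 2.16, 3.51 and 3.20 CPM (4.18 ± 0.28, adjusted p = 7.53e-07) and the urokinase gene Plau rose 1.70-fold. Adamtsl2, a matrix protein that binds fibrillin, rose from 1.00, 0.676 and 0.667 CPM to 10.5, 12.8 and 11.5 CPM (3.91 ± 0.19, adjusted p = 3.12e-08). Of 29 collagen chains, 5 were lower (17.2%), among them Col3a1 of chromosome 1 (1.34-fold), and 1 was higher (3.45%). The collagen-binding integrin chain Itga1 rose 5.65-fold (adjusted p = 7.53e-07). Of 32 semaphorin, plexin and guidance genes, 6 were higher and 6 lower (18.8% each), 1 of the lower genes on chromosome 1. Of the 6 class 3 semaphorins tested, secreted ligands of neuropilins and plexins, 4 rose: Sema3d from 3.93, 4.68 and 3.66 CPM to 33.0, 30.4 and 34.1 CPM (2.99 ± 0.13, adjusted p = 1.37e-08), Sema3a 3.72-fold, Sema3c from 239, 251 and 272 CPM to 566, 523 and 546 CPM and Sema3e 1.65-fold. These 4 genes lie within chr5:12383385-17730268, a stretch that also holds Hgf (chr5:16553495-16620152), silent in 2D KO. Slit2, which fell, lies on the same chromosome but outside that stretch. The other class 3 genes, Sema3f and Sema3b, lie on chromosome 9 and were not called (log2 fold changes 0.43 and 0.28, adjusted p = 0.0526 and 0.155, edgeR).

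Genes used as markers of cell identity changed in part. Vim, the mesenchymal intermediate filament gene, fell from 2863, 2681 and 3007 CPM in WT to 1647, 1745 and 1542 CPM in KO (log2 fold change -0.79 ± 0.093, adjusted p = 9.39e-05, edgeR), and Twist2, a mesenchymal transcription factor on chromosome 1, fell 1.81-fold. The tight junction gene Cldn1 fell too, from 3.68, 3.05 and 2.88 CPM to 0.222, 0.113 and 0.0308 CPM (adjusted p = 5.67e-06). Of 23 genes of epithelial-mesenchymal transition and cadherins, 4 were lower (17.4%) and 1 higher (4.35%), against 3.17% and 3.86% of all genes. The 14 duct and epithelial markers summed to 3012 to 3266 CPM in WT and 2503 to 2643 CPM in KO, most of it from Spp1 (osteopontin). Among them, Krt7 rose 2.55-fold and Pdx1 1.62-fold, Krt18 was 1.31-fold lower and the rare Krt19 went from 0.270, 0.302 and 0.598 CPM to 0. The calls of Krt18 and Krt19 were lost in 6 and 4 of the alternative fits. The 13 fibroblast and stellate markers summed to 803 to 853 CPM in WT and 659 to 688 CPM in KO. Most of the drop lay in Col3a1 of the displaced chromosome 1, at 660, 624 and 659 CPM in WT and 505, 461 and 487 CPM in KO, while Pdgfrb was not called, at 151, 144 and 160 CPM in WT and 162, 173 and 165 CPM in KO. Among the rarer markers Dcn went from 0.366, 0.460 and 0.292 CPM to 0. The 15 leukocyte markers summed to 28.2 to 32.4 CPM in WT and 48.8 to 49.6 CPM in KO. Most of it was Cd14, at 27.8, 26.1 and 30.0 CPM in WT and 42.8, 40.8 and 42.7 CPM in KO. Lyz2 was at 1.08, 0.777 and 0.820 CPM in WT and 5.62, 6.23 and 4.41 CPM in KO, and the defining markers Ptprc, Itgam, Adgre1 and Cd3e at 0 in every 2D library. The 10 acinar markers stayed at or below 1.25 CPM in sum and the 10 endothelial markers at or below 0.693 CPM. In bulk samples, fewer cells that express a gene and less RNA per cell cannot be told apart.

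Neighbouring, near-identical genes were called higher at the 2 loci described here, which were picked out after their values were seen. They were not the only related genes to rise together. Gvin1, Gvin2 and Gvin-ps1 to Gvin-ps5 on chromosome 7 were all called higher (log2 fold changes 1.39 to 1.83). For comparison, 3.86% of all genes tested were higher in 2D KO and 3.17% were lower. Between 41 and 45 Mb of chromosome 14, 32 of 92 tested genes were higher in 2D KO and none lower. The median log2 fold change there was 2.08. Gm9732 was an example, at 4.41, 4.75 and 3.91 CPM in WT and 19.3, 16.2 and 15.8 CPM in KO (adjusted p = 9.88e-06, edgeR). In 3D 68 of the genes in this window were higher (19.7% of all genes), and in the 2-3D samples 12 of 87 (17.6% of all genes). Between 145 and 148 Mb of chromosome 4, 7 of 48 genes were higher and none lower in a cluster of zinc finger genes, with a median of 0.0031. One of the 7 was Zfp600, at 0.366, 0.532 and 0.403 CPM in WT and 5.36, 5.12 and 4.84 CPM in KO (adjusted p = 4.60e-06). That cluster had 13 genes higher and 10 lower in 3D, where 19.7% of all genes were higher and 25.3% lower. In the 2-3D samples it had 3 higher and 19 lower, where 17.6% of all genes were higher and 24.3% lower. Reads of such copies can be assigned to more than 1 gene, so the number of separate changes is uncertain.

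The 2D difference recurred in part in the 2 other comparisons, which share no samples with it or with each other. Of the 825 genes higher in 2D, 515 (62.4%) were also higher in 3D, where 19.7% of all tested genes were higher, and 100 were lower. Of the 677 lower genes, 437 (64.5%) were also lower in 3D, where 25.3% were lower, and 70 were higher. In the 2-3D samples, 479 of 824 higher genes were higher again (17.6% of all 28730 genes tested there were higher) and 314 of 672 lower genes were lower again (24.3%). A total of 383 higher and 282 lower genes kept their direction in all 3 comparisons, among them Cdh26, Sdc3, Scn3a, Cavin2, Sema3d, Adamtsl2, Mmp2 and Nid2 on the higher side and Hgf, Met, Kitl, Nt5e, Ccl9, Jag1 and Cldn1 on the lower. By contrast, 49 higher and 54 lower genes had the opposite direction in both.

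The size of the genotype effect often depended on the culture form. The interaction, the 3D difference minus the 2D difference, was called for 5807 genes (27.2%), including 410 of the 825 higher and 350 of the 677 lower genes, and every one of the 100 higher and 70 lower genes with opposite calls in 3D. Pdgfra was among these reversals, with a log2 fold change of -1.34 in 2D and 3.33 in 3D (interaction 4.66, adjusted p = 3.36e-10, edgeR), and 3.26 in the 2-3D samples. Ms4a4d, among the most certain losses in 2D, differed by only -0.25 in 3D (adjusted p = 0.239, interaction 5.27, adjusted p = 1.05e-07). Areg fell far more in 3D (-5.18) than in 2D (-0.56), and Vim likewise (-2.44 in 3D and -0.79 in 2D). Hif1a and Myc, not called in 2D, were lower in 3D (-1.21 and -1.75, interaction adjusted p = 2.43e-05 and 4.45e-05). The monocyte chemokines differed among themselves. Ccl2 and Ccl7 differed in 3D by -0.41 and -0.47 without passing the test, and the interaction was called for both (adjusted p = 0.0120 and 0.00645), but in the 2-3D samples both were lower (-1.95 and -1.79, adjusted p = 2.09e-05 and 9.68e-05). Ccl9 was lower in 3D as well (-1.88, adjusted p = 9.16e-08), with no call for the interaction (adjusted p = 0.188). The 3D libraries differed from the 2D libraries in composition as well, with TMM factors of 0.820 to 1.22 against 0.994 to 1.04 in 2D.

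**Figure D5:**
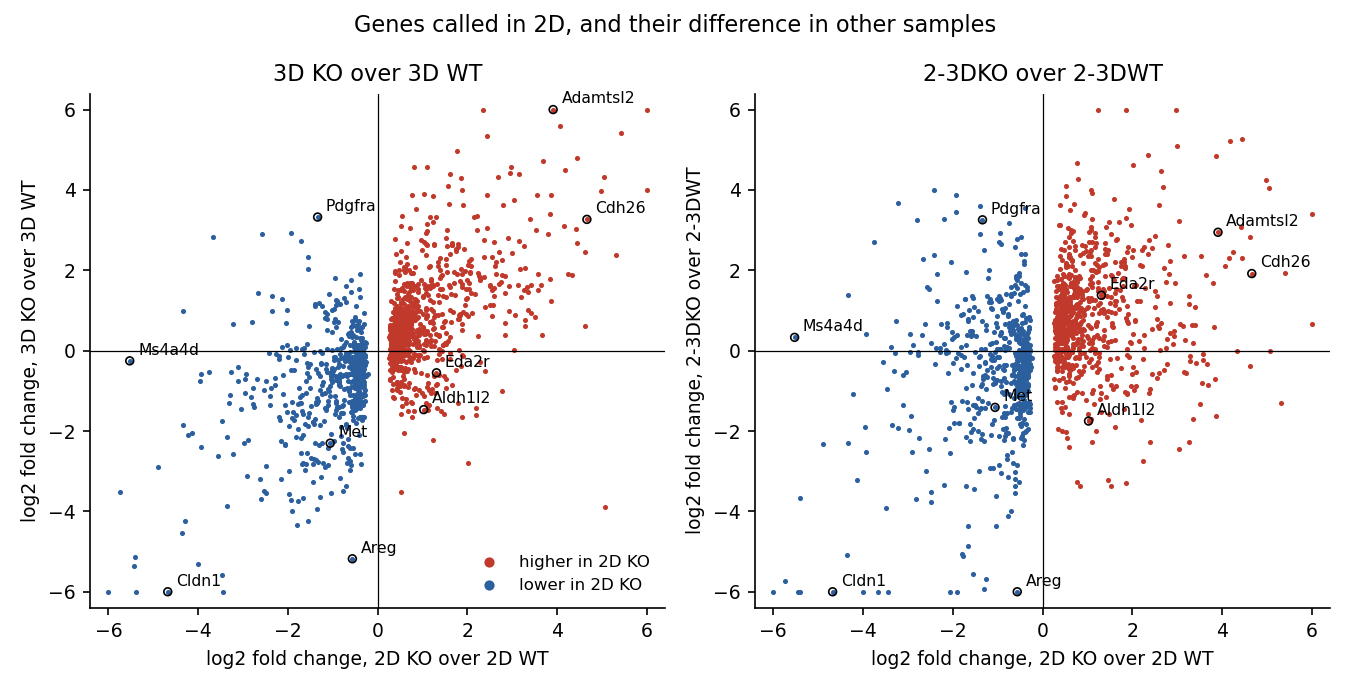
Log2 fold changes of genes called in 2D (x axis, 2D KO over 2D WT) against the same contrast in 3D (left) and in the 2-3D samples (right). Red and blue mark genes higher and lower in 2D KO, values beyond 6 are drawn at the edge, and genes at 3 counts or fewer in every 2D library of a genotype are left out. Most points lie in the quadrants of shared direction, with exceptions such as Pdgfra and Aldh1l2.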

How the data were processed

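RNA of the 2D and 3D Panc02 samples was made into stranded TruSeq total RNA libraries and sequenced as paired reads. The authors used HISAT2 for alignment (GRCm38) and StringTie for gene counting, per the study's methods and the submitters' processing notes; the versions and the annotation release are not given in the sources used here. The deposited values are raw counts per gene, 1 column per sample. Gene positions were taken from a GENCODE annotation of GRCm38, in which 940 of the 21367 tested genes had no entry.

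Counts of the 12 samples of the 2D and 3D table were scaled by TMM, filtered with filterByExpr by group and fitted together by group in edgeR 4.0.16 (R 4.3.3) with quasi-likelihood tests. P-values were adjusted by Benjamini-Hochberg over all genes tested, with calls at an adjusted p under 0.05. Fitting the 3D samples with the 2D samples gave 8 residual degrees of freedom, and the spread is an estimate shared by all groups. SEs were derived from the log2 fold change and the F statistic. The table with the 2-3D samples (10 samples) was fitted on its own. Genes at 3 counts or fewer in every library of a group are given as a bound against 3 counts per library. The SEs include the spread between libraries as estimated in the fit, whereas the bounds cover counting error only.

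Genes named were Cxcl5, Hif1a and Myc, the 12 largest and 8 most certain changes in each direction (adjusted p under 0.05, no overlap between genotypes, mean count of at least 50), up to 5 called members of each list by p and the genes silent in one genotype, of which the text uses part. Other genes were named after their values were seen. The comparison, the gene lists and the marker lists were chosen with earlier results of these data known. The fits were tested on simulated counts with 200 changed genes. Alternatives were DESeq2 1.42.0, other scalings and filters, the 2D groups alone, a replicate block, a log2 fold limit of 1 and leaving out each sample. The same replicate number did not pair samples. The table of spheroids in macrophage medium was not used here, and values of some genes are not reported here.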

Additional observations from a re-analysis of the deposited data

Results flagged for a closer look

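For 75 of the 127 genes checked one by one, the genotype difference in 3D differed from that in 2D by the interaction test (edgeR, adjusted p under 0.05, background 27.2% of all genes). The value beside each gene is the log2 fold change in 3D minus that in 2D, so that a positive value means a higher difference of KO over WT in 3D. For Alcam, Bin2, Eprn, Gpr149, Ifih1, Psmb8 and Tspan8, which were at 3 counts or fewer in every 2D library of a genotype, it is a fitted value that depends on the prior count and not a measured size. The same holds for Inmt and Cldn1, which averaged 0 CPM in 3D WT and 0.0377 CPM in 3D KO respectively, and for Hspb8, near 0 in 2D WT. The calls in 3D and 2D come from the same fit but from different samples. No group had 4 or more samples, so no sample was tested as an outlier.

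Genes that rose in 2D and were lower in 3D were Aldh1l2 (-2.49), Asns (-1.93), Ccng1 (-2.02), Cdkn1b (-1.20), Chac1 (-1.75), Eda2r (-1.86), Fst (-3.11), Psat1 (-1.5), Psph (-1.40), Sesn2 (-1.01), Tap1 (-1.31), Trib3 (-2.08) and Trp53inp1 (-1.36). They include the ATF4, serine synthesis and p53 genes described above. Genes that rose in both and by more in 3D were Adamtsl2 (3.30), C1s1 (0.43), C3 (2.67), Elovl5 (0.71), Fas (1.49), Fzd5 (0.95), Inmt (7.19), Mmp2 (1.47), Mxd4 (1.66), Olfml2b (1.60), Pdx1 (0.63) and Plau (0.92). Those that rose in both and by less in 3D were Cdh26 (-1.40), Eprn (-6.88), Hspb8 (-3.80), Itga1 (-0.86), Scn3a (-0.55), Sdc3 (-1.01), Sema3a (-0.93), Sema3c (-0.61) and Sema3d (-0.56). Those that rose in 2D and did not pass the test in 3D were Pdk1 (-0.92) and Vldlr (-0.86).

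Among genes that fell in 2D, the following were higher in 3D: Col3a1 (1.15), Ifit1 (1.93) and Pdgfra (4.66). Genes that fell in both and by more in 3D were Areg (-4.62), Cdc6 (-0.74), Cldn1 (-4.04), Il33 (-1.96), Jag1 (-1.30), Jun (-2.11), Krt18 (-2.18), Mcm3 (-0.50), Met (-1.25), Nfkbia (-0.88), Nfkbiz (-0.90), Pfkp (-0.74) and Vim (-1.65). Receptor, growth factor and cytoskeletal genes such as Met, Areg and Vim are in that set. Those that fell in both and by less in 3D were Alcam (4.46), Aspa (2.02), Bmp6 (1.54), Gcnt4 (0.59), Gpr149 (6.63), Ifih1 (5.58), Psmb8 (2.63), Trim30d (3.34) and Tspan8 (8.27). Those that fell in 2D and did not pass the test in 3D were Bin2 (4.75), Ccl2 (1.14), Ccl7 (1.38), Ms4a4d (5.27), Nfkbie (0.74) and Trim30a (2.07).

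Genes not called in 2D that differed from 3D were Cdkn1a (-4.29), Csf1 (-1.17), Cxcl3 (1.23), Cxcl5 (1.37), Hif1a (-1.27), Myc (-1.41), Nfkb1 (-0.45) and Top2a (-0.86). The cause of these differences between culture forms was not tested.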

How the results depend on the processing

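The number of calls differed between settings, and the cause was not tested. Against 825 higher and 677 lower genes, DESeq2 gave 1158 and 907, the 2D groups fitted alone 994 and 870, DESeq2's size factors 855 and 623, library totals 788 and 530, no filter 660 and 514 and a minimum of 10 counts in every sample 789 and 576. With a log2 fold change above 1 the counts were 364 and 302, 2438 for the interaction, 375 for calls shared with 3D and 268 for calls shared with the 2-3D samples. Leaving out 1 sample gave 609 to 686 higher and 402 to 495 lower genes, and the lower count was under the main count by more than 1.5 times without WT replicate 1 (434), WT replicate 3 (430), KO replicate 1 (420), KO replicate 2 (426) or KO replicate 3 (402). The interaction count then ran from 4342 to 6993, the calls shared with 3D from 675 to 1003 and those shared with the 2-3D samples from 563 to 703. Higher genes made up 54.9% of calls and at most 61.7% in any of these settings. Counting only genes outside chromosome 1, an alternative added after seeing the data, gave 793 and 509.

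The Cxcl5 call itself turned on the fit. Its log2 fold change was -0.47 (adjusted p = 0.0705, edgeR), and it passed the threshold with DESeq2 (-0.45, adjusted p = 0.0323), library totals (-0.45, adjusted p = 0.0186), a minimum of 10 counts (-0.46, adjusted p = 0.0473), the 2D groups alone (-0.46, adjusted p = 0.00442) and the replicate block (-0.47, adjusted p = 0.0352). With 1 sample left out it ranged from -0.51 to -0.40 and did not pass (adjusted p = 0.111 to 0.246).

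The labels number the replicates alike in both genotypes, but same-numbered samples did not deviate together (correlations 0.0509, -0.0688 and -0.236), and WT replicates 1, 2 and 3 correlated best with KO replicates 1, 3 and 1. With the replicate block 865 genes were higher and 689 lower.

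Of 118 named and called genes, 94 kept their call in every alternative that tested them, other than the fold limit. The other 24 lost it in at least 1, Bcl3 in the most (11). Genes removed by an alternative's filter could not lose their call there. With the minimum of 10 counts in every sample this holds for the genes silent in a genotype. Cxcl3, not called, changed sign, at 0.0066 with DESeq2, 0.0069 with its size factors, 0.017 with library totals, 0.0029 with the minimum of 10 counts, 0.0038 with the 2D groups alone and between -0.057 and 0.16 with 1 sample left out (0.0478 without KO replicate 2 and 0.0148 without KO replicate 3). Nfkb1, not called either, ran from -0.11 to 0.081, the higher value without WT replicate 1. Depth limits genes under about 0.06 CPM, where 3 counts cannot be told from 0.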
